A study of Mus musculus with 6 samples.

Results

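Collagens are extracellular matrix proteins, each a trimer of chains wound into a triple helix, and every chain is encoded by a gene of its own. The collagen chain genes described here are the protein-coding rows of the deposited gene table whose symbol reads Col, a type number, the letter a and a chain number. There were 44 of them among 20588 genes, of which 16380 were protein coding. They were measured in RNA from cultured muscle stem cells (satellite cells) that had been sorted by FACS from hind limb muscle; the mice were C57BL/6NJ and 2 months old. WT cells came from wild-type mice and PKO cells from mice labelled Pnpla2PKO, with 3 libraries of each. The product of Pnpla2, adipose triglyceride lipase, makes the first cut in stored triglyceride. Both groups grew for 7 days in growth medium and were then held for 16 h in DMEM containing 2% horse serum, a low-serum step under which myoblasts leave the cell cycle and fuse. The promoter or Cre driver behind the PKO allele is not given in the sources used here. The labels also leave out which animals or cultures the 3 libraries of each group stem from. The p-values therefore measure only how these libraries differ, which may be technical. The libraries held 15580176 to 18839151 counts of poly(A) RNA sequenced in 150-base paired reads. Where 3 values are given for a group, they stand in the order of library 1, 2 and 3.

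Pnpla2 itself stood at 21.1, 38.5 and 33.7 (WT) and 8.46, 16.0 and 15.5 (PKO) in CPM (counts scaled to library size with TMM factors), so every PKO library was below every WT library and none was near 0. The cells carried the muscle label in their RNA: Myog, the transcription factor of early muscle differentiation, was at 2796, 2508 and 2734 CPM (WT) and 2501, 2235 and 2299 CPM (PKO), and all 10 myogenic marker genes were detected in all 6 libraries. The PKO libraries were not alike. Relative to the WT mean, the median collagen gene stood at a log2 difference of 0.53 in PKO 1, 1.46 in PKO 2 and 0.83 in PKO 3, against 0.26, −0.12 and −0.04 in WT 1, WT 2 and WT 3. WT 1 was thus the highest WT library and PKO 1 the lowest PKO library, and counts that change without these libraries are given with and without them.

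In skeletal muscle, interstitial fibroblasts make most of the fibrillar collagen that ties fibres and bundles together, and satellite cells lie under a basement membrane built around a type IV collagen network. Type VI collagen forms beaded microfilaments between that membrane and the interstitial fibrils. Myogenic cells in culture also transcribe several collagen genes, types IV, V and XVIII among them. Newly made chains are hydroxylated, folded and trimerised in the endoplasmic reticulum, trimmed outside the cell, and cross-linked by lysyl oxidases.

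Several collagen genes lie side by side. The start regions of such a pair and of some other collagen genes are shown first. Col4a1 and Col4a2, whose chains share 1 trimer, are transcribed away from each other on chromosome 8, and their gene models in the deposited table overlap by 22 bases at their starts. The window chr8:11312801-11312830 (GRCm38, plus strand) holds this overlap and 4 flanking bases on each side. It is printed because the most abundant basement membrane pair starts there, and capitals mark the shared bases.

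Col4a1 and Col4a2 shared start: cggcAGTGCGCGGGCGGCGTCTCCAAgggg

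The 250 bases before the start of 3 other genes (RefSeq, GRCm38.p6) are printed for the most abundant collagen mRNA, Col3a1, for the fibril initiator chain Col5a1, and for Col13a1, a transmembrane collagen with a negative fold change. Capitals mark the motifs found in them. These are the letters TATAAA in Col3a1 and Col13a1, and the GC box GGGCGG or its reverse complement in Col5a1. The TATAAA match lies near the middle of the Col3a1 window and near the far end of the Col13a1 window, not close to either start site. Coordinates are chr1:45311288-45311537 on the plus strand for Col3a1, chr2:27886175-27886424 on the plus strand for Col5a1 and chr10:61979109-61979358 on the minus strand for Col13a1. Each is printed along its gene's own strand and ends at the base before the start site.

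Col3a1: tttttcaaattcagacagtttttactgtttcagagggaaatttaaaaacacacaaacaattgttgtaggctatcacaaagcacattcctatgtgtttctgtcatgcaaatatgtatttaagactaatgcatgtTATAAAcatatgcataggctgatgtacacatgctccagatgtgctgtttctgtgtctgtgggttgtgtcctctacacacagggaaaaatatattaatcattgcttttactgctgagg

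Col5a1: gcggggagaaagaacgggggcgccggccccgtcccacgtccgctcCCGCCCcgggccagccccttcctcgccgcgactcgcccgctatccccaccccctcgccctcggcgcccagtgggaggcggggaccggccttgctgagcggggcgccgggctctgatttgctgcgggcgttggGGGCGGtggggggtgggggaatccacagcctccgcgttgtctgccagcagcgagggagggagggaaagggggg

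Col13a1: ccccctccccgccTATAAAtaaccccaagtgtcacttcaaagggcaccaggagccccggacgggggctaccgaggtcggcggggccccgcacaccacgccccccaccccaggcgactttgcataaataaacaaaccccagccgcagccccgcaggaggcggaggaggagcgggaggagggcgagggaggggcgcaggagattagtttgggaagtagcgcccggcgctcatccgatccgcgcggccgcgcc

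Both strands of such windows were searched for TATAAA, for the box motif CCAAT and for the GC box GGGCGG. RefSeq promoters were found for 35 of the 44 collagen genes. TATAAA was present for 5 of these genes and in 12.4% of all 32851 windows, CCAAT for 13 and in 33.8%, and GGGCGG for 21 and in 32.7%. A match of letters describes the window only.

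Collagen mRNA made up 0.189, 0.173 and 0.172% of all counts (WT) and 0.246, 0.740 and 0.439% (PKO). Every PKO library was above every WT library, PKO 1 by the smallest margin. The means were 0.178% ± 0.010 in WT and 0.475% ± 0.249 in PKO (SD, n = 3 each; exact two-sided permutation test p = 0.1, the smallest that 3 against 3 libraries allow). In bulk RNA, more cells that express a gene and more mRNA per cell cannot be told apart. Summed over the 44 genes and scaled for gene length, the collagen level was 307, 285 and 283 (WT) and 394, 1189 and 717 (PKO) in FPKM (fragments scaled to gene length and depth).

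The genes were grouped by the structure of the assembled collagen into 8 classes. Of the 44 genes, 32 had enough counts to be tested in edgeR across the 14025 genes that passed its low-count filter, and 12 did not. Of the 32, 27 had a positive log2 fold change (PKO over WT) and 5 a negative one, with a median of 0.87 against −0.02 over all genes tested. No collagen gene passed an adjusted p of 0.05 in edgeR, nor did any gene of the table (0% called higher and 0% lower). In the same fit 17 collagen genes were higher and 2 lower at an unadjusted p under 0.05, where 10.2% and 6.35% of all genes were. DESeq2 called 12 collagen genes higher and 1 lower among the 39 to which it gave an adjusted p, beside 4.73% higher and 0.933% lower of 16192 genes over the whole table. The DESeq2 counts per class below are to be read beside the same shares. Without WT 1 and PKO 1, edgeR called 16 of 35 collagen genes higher and 2 lower, with 10.2% and 5.63% of all genes called. These libraries are the highest WT and the lowest PKO library by the median collagen gene and were left out with that known, so the count is widened by that choice and is no independent check. With single libraries left out, edgeR called 13 collagen genes without PKO 1 (Col1a1, Col1a2, Col3a1, Col4a1, Col4a2, Col4a5, Col5a1, Col5a3, Col6a1, Col6a2, Col6a3, Col11a1 and Col16a1), 4 without WT 1 (Col3a1, Col4a5, Col25a1 and Col26a1) and 0 without any of the others. The 3 PKO libraries all lay above the 3 WT libraries for 13 collagen genes and all below for 2, as they did for 11.7% and 9.72% of all genes. Of the 32 tested, Col2a1 and Col11a1 did not reach the filter's cutoff in every WT library. Over the 30 genes that reached that cutoff, 0.556 CPM, in all 3 WT libraries the median was 0.76, with 25 above 0.

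**Figure D1:**
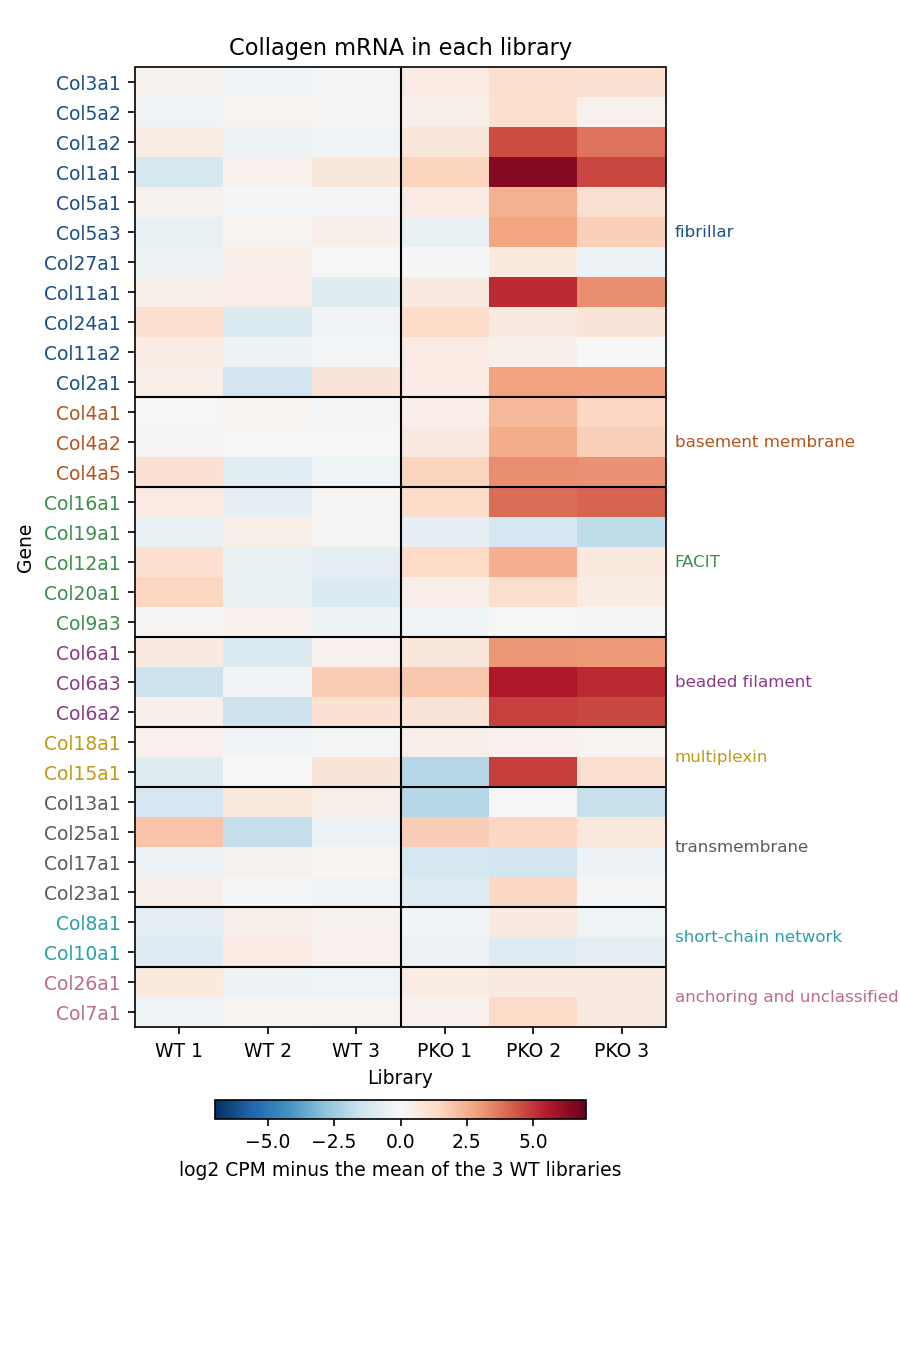
Collagen mRNA in each library (columns) for the 32 genes tested (rows, grouped and coloured by structural class), as log2 CPM minus the mean of the 3 WT libraries. Red is above and blue below the WT mean; PKO 2 is the highest of the PKO libraries for 22 of the 32 genes, and PKO 1 is paler than PKO 2 and PKO 3 in the type I, type IV and type VI rows.

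The heat map by library shows that PKO 2 was the highest of the PKO libraries for 22 of the 32 genes, PKO 1 for 6 and PKO 3 for 4. PKO 1 exceeded every WT library for 17 genes and lay below every WT library for 6. For PKO 2 these counts were 22 and 3, and for PKO 3 they were 17 and 4. The PKO mean was at least 2 times the WT mean for 15 genes and at least 10 times for 6. The shares over all genes were not computed for the counts in this paragraph, so they do not set collagen genes apart from other genes.

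Fibrillar collagens, which form the banded fibrils of connective tissue, numbered 11, all tested, and all 11 had a positive log2 fold change with a median of 1.58, or 0.88 without PKO 2. Col2a1 and Col11a1, which did not reach the filter's cutoff in every WT library, both belong to this class. Their log2 fold changes of 2.33 and 4.12 lie above its median and raise it. DESeq2 called 5 of the 11 higher, Col1a1, Col1a2, Col3a1, Col5a1 and Col11a1. Coordinates of genes are those of the deposited table on GRCm38. Col3a1 (ENSMUSG00000026043, chromosome 1, 45311538 to 45349706, plus strand), the single chain of type III collagen, was at 371, 268 and 295 CPM (WT) and 458, 679 and 642 CPM (PKO). All PKO libraries were above all WT libraries, with means of 311 ± 53.6 CPM (WT) and 593 ± 118 CPM (PKO) (SD, n = 3) and a log2 fold change of 0.93 ± 0.20 (SE; edgeR adjusted p = 0.179, DESeq2 adjusted p = 0.00204). It had the highest mean FPKM of all collagen genes (81.9 over the 6 libraries).

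Col1a1 (ENSMUSG00000001506, chromosome 11, 94936224 to 94953042, plus strand) and Col1a2 (ENSMUSG00000029661, chromosome 6, 4504814 to 4541543, plus strand) encode the chains of type I collagen, the main collagen of tendon, bone and scar. Col1a1 stood at 4.43, 12.1 and 17.1 CPM (WT) and 29.3, 857 and 249 CPM (PKO). Col1a2 stood at 51.9, 28.9 and 31.9 CPM (WT) and 65.1, 854 and 499 CPM (PKO). Both were low in all WT libraries and in PKO 1, which was still above each of them, and both were an order of magnitude above the WT mean in PKO 2 and PKO 3. Col1a1 had the largest log2 fold change of the tested collagen genes, 5.08 ± 1.20 (SE; edgeR adjusted p = 0.185, DESeq2 adjusted p = 0.00191), and Col1a2 had 3.66 ± 0.84 (SE; edgeR adjusted p = 0.184, DESeq2 adjusted p = 0.00453). The SD in PKO exceeded the PKO mean for Col1a1, at 11.2 ± 6.39 CPM (WT) and 379 ± 429 CPM (PKO) (n = 3). Without PKO 2 its log2 fold change was 3.64 and its DESeq2 adjusted p 0.0677. The stromal marker Pdgfra was also high in PKO 2 and PKO 3 alone (102 and 95.2 CPM, and at most 5.11 CPM in the other libraries), and its part in these values was not tested.

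Type V collagen sits inside type I fibrils and sets their diameter. Col5a1 (ENSMUSG00000026837, chromosome 2, 27886425 to 28039514, plus strand) was at 103, 80.6 and 79.1 CPM (WT) and 127, 479 and 179.7 CPM (PKO), with all PKO libraries above all WT libraries. Its log2 fold change was 1.58 ± 0.47 (SE; edgeR adjusted p = 0.205, DESeq2 adjusted p = 0.00859) and 0.82 without PKO 2. Col5a2 (ENSMUSG00000026042, chromosome 1, 45374321 to 45503282, minus strand) was at 268, 367 and 333 CPM (WT) and 419.5, 688 and 396 CPM (PKO). The groups did not overlap for Col5a2 either, but its log2 fold change of 0.64 ± 0.24 passed neither test (SE; edgeR adjusted p = 0.273, DESeq2 adjusted p = 0.152). Col5a3, another chain of the type, was at 21.0, 34.7 and 38.2 CPM (WT) and 21.0, 209.7 and 97.1 CPM (PKO). PKO 1 equalled the lowest WT library for this chain while PKO 2 and PKO 3 were above all of them. Neither test called it with all libraries (log2 fold change 1.80 ± 0.72 SE; edgeR adjusted p = 0.283, DESeq2 adjusted p = 0.248). Its log2 fold change was 0.93 without PKO 2, and without PKO 1 it was 2.30 and called (edgeR adjusted p = 0.0266).

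Of the remaining fibrillar chains, Col11a1, a type XI chain of cartilage and of fibril cores, was at 0.826, 0.851 and 0.273 CPM (WT) and 0.958, 26.4 and 6.66 CPM (PKO). It is given here because of these values: it was under 1 CPM in 4 libraries and highest in PKO 2 and PKO 3 (log2 fold change 4.12 ± 1.16 SE; edgeR adjusted p = 0.192, DESeq2 adjusted p = 0.0196). Without PKO 2 its log2 fold change was 2.56. Col2a1, the cartilage fibril chain, reached at most 3.02 CPM, in PKO 3, and had a log2 fold change of 2.33 ± 0.85 (SE; DESeq2 adjusted p = 0.0936). Col24a1, Col27a1 and Col11a2 had log2 fold changes of 0.72, 0.09 and 0.31, each with overlapping groups.

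**Figure D2:**
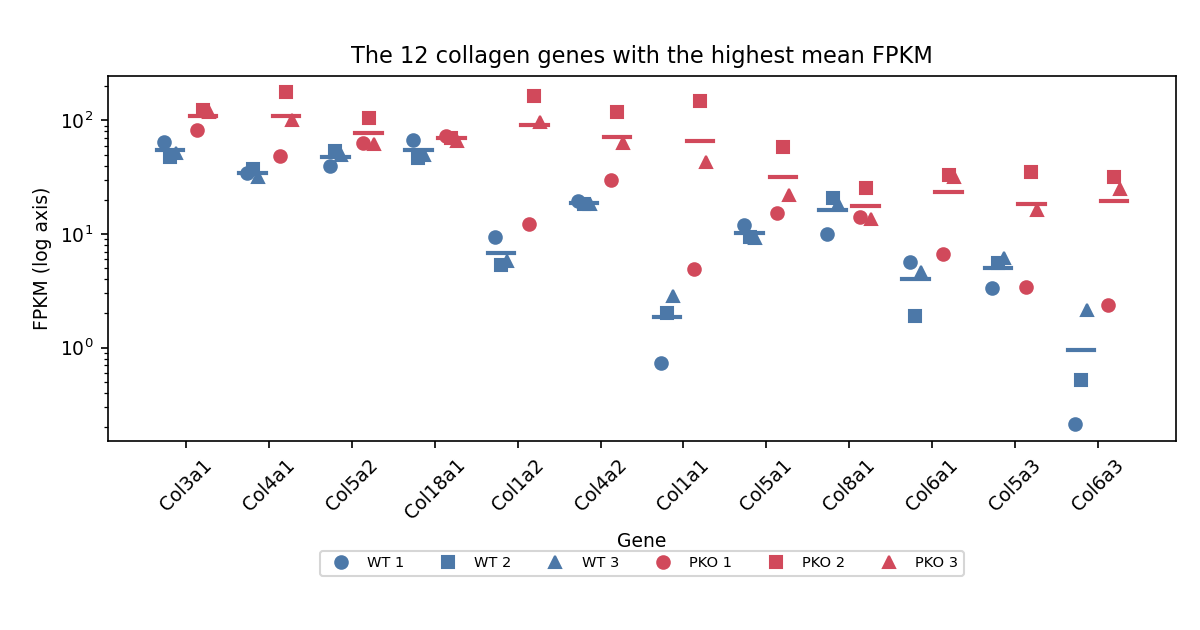
Levels of the 12 collagen genes with the highest mean FPKM, in order of that mean. Each point is 1 library on a log axis of FPKM, lines mark the group means, blue is WT and red is PKO; Col1a1, Col1a2 and Col6a3 show WT points far below the PKO 2 and PKO 3 points, while Col18a1 and Col8a1 do not.

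The order of collagen mRNAs by FPKM, which scales for length, differed between libraries. In WT 1 Col18a1 led, in WT 2 Col5a2, and in WT 3 and PKO 1 Col3a1. In these 4 libraries Col3a1, Col5a2, Col18a1 and Col4a1 filled the first 4 places. In PKO 2 the first 3 were Col4a1, Col1a2 and Col1a1, and in PKO 3 they were Col3a1, Col4a1 and Col1a2. Averaged over the 6 libraries, Col5a2 (62.5 FPKM) and Col18a1 (62.2 FPKM) were neighbours whose ranges overlapped, as were Col3a1 (81.9 FPKM) and Col4a1 (71.7 FPKM). The plot of FPKM for the 12 most abundant genes shows that the WT libraries of Col1a1 and Col6a3 lay under 3 FPKM.

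Basement membrane collagens, the type IV chains of the sheet around each muscle fibre, numbered 6, of which 3 were tested. DESeq2 called all 3 higher, and their median log2 fold change was 1.86. Col4a1 (ENSMUSG00000031502, chromosome 8, 11198423 to 11312826, minus strand) was at 235, 254 and 215 CPM (WT) and 321, 1148 and 638 CPM (PKO). Col4a2 (ENSMUSG00000031503, chromosome 8, 11312805 to 11449287, plus strand) was at 128, 120.3 and 121 CPM (WT) and 193, 751 and 395 CPM (PKO). In both, the WT libraries were close together, PKO 1 lay above them by less than PKO 3 did, and PKO 2 was highest. The log2 fold change was 1.58 ± 0.42 for Col4a1 (SE; edgeR adjusted p = 0.190, DESeq2 adjusted p = 0.00275) and 1.86 ± 0.44 for Col4a2 (SE; edgeR adjusted p = 0.185, DESeq2 adjusted p = 5.29e-04). Without PKO 2 the log2 fold change of Col4a1 was 1.04. Relative to the WT mean the PKO mean was 2.99 times as high for Col4a1 and 3.62 times for Col4a2. Col4a5 (ENSMUSG00000031274, chromosome X, 141475385 to 141689234, plus strand), a chain of the network that pairs with Col4a6 in some basement membranes, is described here because of its values and was at 4.78, 1.31 and 1.80 CPM (WT) and 6.87, 22.7 and 21.5 CPM (PKO). Its groups did not overlap, and its log2 fold change was 2.69 ± 0.63 (SE; edgeR adjusted p = 0.184, DESeq2 adjusted p = 2.60e-04). Col4a3, Col4a4 and Col4a6, the chains known from kidney and other specialised membranes, did not exceed 0.72 CPM in any library and were not tested.

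Among the 13 DESeq2 calls, only Col4a2 and Col4a5 passed in each of the 6 fits that left out 1 library. Col1a1 was lost without PKO 2 (adjusted p = 0.0677 in DESeq2) and Col16a1 without WT 2 (0.0506). Col3a1 was lost without WT 2 (0.0619) or WT 3 (0.0647), Col4a1 without WT 1 (0.0812) or WT 3 (0.0665), and Col6a1 without WT 3 (0.186) or PKO 2 (0.248). The other 6 were lost in 3 or 4 of the fits: Col6a2 and Col6a3 without WT 2, PKO 2 or PKO 3, Col11a1 without WT 2, WT 3 or PKO 2, Col5a1 without any of the WT libraries, and Col1a2 and Col19a1 without WT 2, WT 3, PKO 2 or PKO 3. No call was lost without PKO 1.

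Beaded filament collagens (type VI) numbered 6, and the 3 that were tested, Col6a1, Col6a2 and Col6a3, were each called higher by DESeq2, with a median log2 fold change of 3.92, the highest of the 8 classes. These chains assemble together into the type VI microfilament, and mutations in their human genes cause Bethlem and Ullrich muscle disease. Col6a1 (ENSMUSG00000001119, chromosome 10, 76708792 to 76726168, minus strand) was at 23.8, 7.92 and 19.3 CPM (WT) and 27.1, 132 and 125 CPM (PKO). Col6a3 (ENSMUSG00000048126, chromosome 1, 90765923 to 90843971, minus strand) was at 2.18, 5.30 and 22.0 CPM (WT) and 23.9, 314 and 242 CPM (PKO). Col6a2 (ENSMUSG00000020241, chromosome 10, 76595762 to 76623630, minus strand), named after its values were seen, was at 2.36, 0.589 and 3.99 CPM (WT) and 3.46, 53.4 and 49.5 CPM (PKO). PKO 2 and PKO 3 were several times the highest WT library for each of these chains. By contrast, PKO 1 was within the WT range for Col6a2 and just above it for the other two. The log2 fold change was 2.47 ± 0.65 for Col6a1 (SE; edgeR adjusted p = 0.190, DESeq2 adjusted p = 0.0291), 4.29 ± 1.14 for Col6a3 (SE; edgeR adjusted p = 0.190, DESeq2 adjusted p = 0.0140) and 3.92 ± 1.05 for Col6a2 (SE; edgeR adjusted p = 0.190, DESeq2 adjusted p = 0.0196). Col6a4, Col6a5 and Col6a6, tandem neighbours on chromosome 9, did not exceed 1.14 CPM in any library and were not tested.

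**Figure D3:**
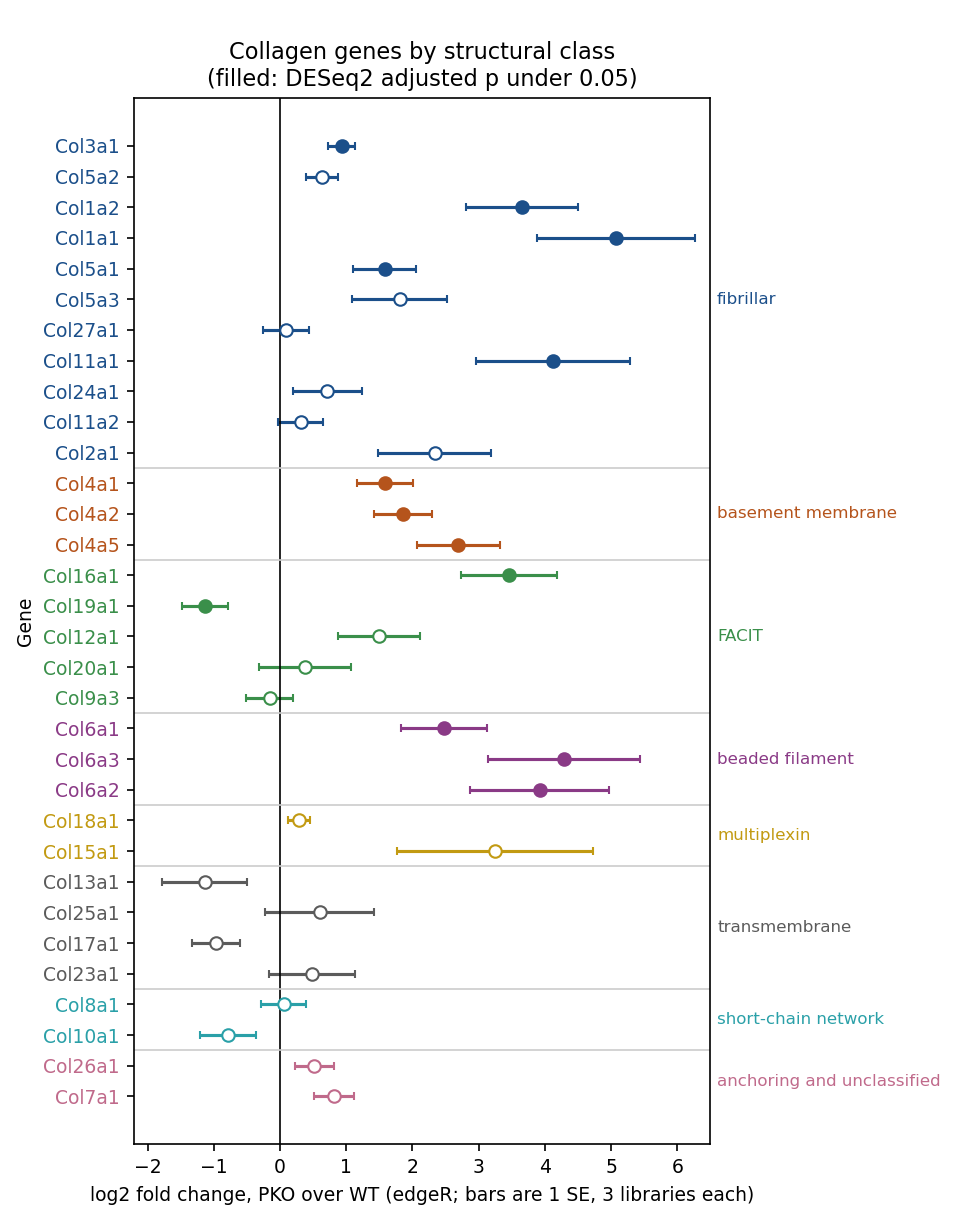
Log2 fold change (PKO over WT, edgeR) of the 32 tested collagen genes by structural class, with bars of 1 SE from 3 libraries per group; filled points have a DESeq2 adjusted p under 0.05. All fibrillar, basement membrane and beaded filament points are right of 0, and the filled point left of 0 is Col19a1.

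FACITs are fibril-associated collagens with interrupted triple helices, which coat fibrils or lie near basement membranes. DESeq2 called 1 of them higher and 1 lower. Of 9 genes, 5 were tested, 3 with a positive and 2 with a negative log2 fold change, and the median was 0.38. This median rests on single libraries: it was 1.65 without WT 1, 0.085 without PKO 2, 0.048 without WT 2 and −0.041 without WT 3. Col16a1 (ENSMUSG00000040690, chromosome 4, 130047840 to 130099283, plus strand), a minor chain found near fibrils and basement membranes, was at 6.20, 2.68 and 4.43 CPM (WT) and 10.2, 63.8 and 72.3 CPM (PKO). All PKO libraries were above all WT libraries, and it had the smallest DESeq2 adjusted p of the collagen genes (log2 fold change 3.45 ± 0.73 SE; edgeR adjusted p = 0.179, DESeq2 adjusted p = 2.15e-06). Col19a1 (ENSMUSG00000026141, chromosome 1, 24261890 to 24587472, minus strand), a minor basement membrane zone collagen transcribed by myoblasts, was at 26.0, 48.0 and 37.9 CPM (WT) and 24.7, 15.7 and 10.5 CPM (PKO). Here all PKO libraries were below all WT libraries, PKO 1 narrowly so. Col19a1 was the 1 collagen gene called lower by DESeq2 (log2 fold change −1.14 ± 0.35 SE; edgeR adjusted p = 0.211, DESeq2 adjusted p = 0.0326). Its neighbour Col9a1, which ends 9205 bases from the end of Col19a1 on chromosome 1, had at most 0.18 CPM. Col12a1, which coats type I fibrils and is named here after its values were seen, was at 53.9, 17.7 and 15.7 CPM (WT) and 64.7, 142 and 40.3 CPM (PKO), with WT 1 above PKO 3 and no call (log2 fold change 1.50 ± 0.61 SE; DESeq2 adjusted p = 0.0737). Col9a3, a cartilage FACIT chain, was at 1.30, 1.50 and 0.930 CPM (WT) and 0.958, 1.25 and 1.13 CPM (PKO) with overlapping groups (log2 fold change −0.16 ± 0.36 SE; edgeR adjusted p = 0.847). Col20a1 had a log2 fold change of 0.38, also with overlapping groups. Reads of overlapping genes may not have been separated: 9230112E08Rik lies over Col20a1 on the same strand, with 1079 counts in all against 216, and Tcfl5 over Col9a3 on the opposite strand, with 117 against 124. Col9a1, Col9a2, Col14a1 and Col22a1 were not tested.

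Multiplexins carry many short helical stretches and are basement membrane proteoglycans. Both of them were tested and neither was called (median log2 fold change 1.77, and 0.20 without PKO 2). Col18a1 (ENSMUSG00000001435, chromosome 10, 77052178 to 77166548, minus strand), the precursor of endostatin, was at 438, 304 and 322 CPM (WT) and 458, 438 and 399.9 CPM (PKO). The WT and PKO ranges overlapped, and its log2 fold change of 0.28 ± 0.17 was the smallest among the 8 collagen genes with the highest mean FPKM (SE; edgeR adjusted p = 0.431, DESeq2 adjusted p = 0.500). Col15a1 (ENSMUSG00000028339, chromosome 4, 47208161 to 47313167, plus strand), its relative in muscle and vessel basement membranes, was at 1.65, 3.08 and 5.91 CPM (WT) and 0.692, 94.1 and 6.97 CPM (PKO). PKO 2 alone was far above the rest and PKO 1 was the lowest of the 6 libraries. Its log2 fold change was 3.25 ± 1.48 (SE; edgeR adjusted p = 0.326, DESeq2 adjusted p = 0.252) and 0.12 without PKO 2.

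Transmembrane collagens, which are anchored in the cell's own membrane, numbered 4, all tested, with a median log2 fold change of −0.24 (0.070 without WT 1 and PKO 1) and no call by either tool with all libraries. Col13a1 (ENSMUSG00000058806, chromosome 10, 61838236 to 61979108, minus strand), a collagen of the neuromuscular junction and of cell adhesion sites, was at 10.3, 39.3 and 30.5 CPM (WT) and 5.80, 22.8 and 7.69 CPM (PKO). WT 2 and WT 3 were the highest, and PKO 2 lay above WT 1 (log2 fold change −1.14 ± 0.64 SE; edgeR adjusted p = 0.402, DESeq2 adjusted p = 0.269). Col17a1, a hemidesmosome collagen of epithelia, was at 3.19, 4.91 and 4.70 CPM (WT) and 1.70, 1.65 and 3.18 CPM (PKO). All PKO libraries were below all WT libraries, PKO 3 only just below WT 1, but the gene passed neither test (log2 fold change −0.97 ± 0.37 SE; edgeR adjusted p = 0.271, DESeq2 adjusted p = 0.170). Col25a1, which motor axons need on muscle for innervation, was at 61.1, 4.91 and 11.2 CPM (WT) and 50.4, 41.3 and 25.3 CPM (PKO). WT 1 was the highest and WT 2 the lowest of all libraries for this gene. Its log2 fold change was 0.60 ± 0.82 (SE; edgeR adjusted p = 0.734) over all libraries. Without WT 1 it was 2.27 and called (edgeR adjusted p = 0.0447), and without WT 2 it was 0.11. Col23a1 had a log2 fold change of 0.48 with overlapping groups.

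Of 3 short-chain network collagens 2 were tested (median log2 fold change −0.37). That median was above 0 without WT 2 (0.25), without WT 3 (0.14) or without PKO 3 (0.22). Of 3 anchoring and unclassified chains 2 were tested (median 0.67, and 1.02 without PKO 1). Neither tool called any of these genes with all libraries. Col8a1 (ENSMUSG00000068196, chromosome 16, 57624258 to 57754737, minus strand), which forms hexagonal lattices around vessels, was at 52.2, 108 and 96.3 CPM (WT) and 71.4, 128 and 67.4 CPM (PKO). The groups overlapped throughout, and the log2 fold change of 0.06 ± 0.34 (SE; edgeR adjusted p = 0.949) turned negative without WT 1 (−0.21), without PKO 2 (−0.30) or without both WT 1 and PKO 1 (−0.068). Col10a1, the collagen of hypertrophic cartilage, was at 1.95, 5.50 and 4.59 CPM (WT) and 2.77, 1.87 and 2.31 CPM (PKO), with a log2 fold change of −0.79 ± 0.42 (SE; edgeR adjusted p = 0.382). Without WT 1 and PKO 1, left out with their place known, its log2 fold change was −1.26 and it was called lower (edgeR adjusted p = 0.0435). Nt5dc1 overlaps Col10a1 on the opposite strand with 820 counts in all against 331. Col26a1 was at 24.0, 11.4 and 11.8 CPM (WT) and 21.1, 23.3 and 23.4 CPM (PKO) (log2 fold change 0.52 ± 0.30 SE; edgeR adjusted p = 0.410). Without WT 1 its log2 fold change was 0.95 and it was called (edgeR adjusted p = 0.0198), and without WT 2 it was 0.33. The PKO libraries were close to each other, and WT 1 stood with them and apart from WT 2 and WT 3. Col7a1, the anchoring fibril chain of skin, was at 6.96, 9.49 and 9.84 CPM (WT) and 10.8, 21.9 and 13.5 CPM (PKO), with all PKO libraries above all WT libraries and no call (log2 fold change 0.81 ± 0.30 SE; edgeR adjusted p = 0.265, DESeq2 adjusted p = 0.141). Col8a2 and Col28a1 were not tested.

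The makeup of collagen mRNA was compared as each class's share of the summed collagen FPKM. Fibrillar chains made up 43.3, 44.1 and 44.9% (WT) and 46.9, 54.0 and 50.7% (PKO). Basement membrane chains made up 17.9, 19.7 and 17.9% (WT) and 20.2, 25.2 and 23.3% (PKO). For both shares the lowest PKO library lay above the highest WT library. Multiplexins made up 22.1, 16.7 and 18.0% (WT) and 18.4, 7.51 and 9.31% (PKO), with PKO 1 inside the WT range. Beaded filament chains made up 2.09, 0.900 and 2.68% (WT) and 2.47, 6.39 and 9.31% (PKO), with PKO 1 again inside it. Transmembrane collagens made up 4.24, 4.91 and 4.28% (WT) and 2.49, 1.24 and 1.01% (PKO), lower in every PKO library, as were FACITs at 3.84, 3.99 and 3.37% (WT) and 3.30, 2.47 and 2.92% (PKO). The collagen sum rose in PKO, so a lower share is not a lower level. Summed FACIT CPM was higher in every PKO library, at 91.5, 70.9 and 60.3 (WT) and 103, 226 and 127 (PKO). The summed CPM of transmembrane collagens and of multiplexins overlapped between groups. Short-chain network collagens made up 3.51, 7.90 and 7.04% (WT) and 3.92, 2.21 and 2.02% (PKO), and the anchoring and unclassified chains 2.99, 1.80 and 1.85% (WT) and 2.23, 0.946 and 1.45% (PKO). The exact two-sided permutation p was 0.1, the smallest possible, for the fibrillar, basement membrane, FACIT and transmembrane shares and 0.2 to 0.4 for the others, and every adjusted p over the 8 classes was 0.2 or more.

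**Figure D4:**
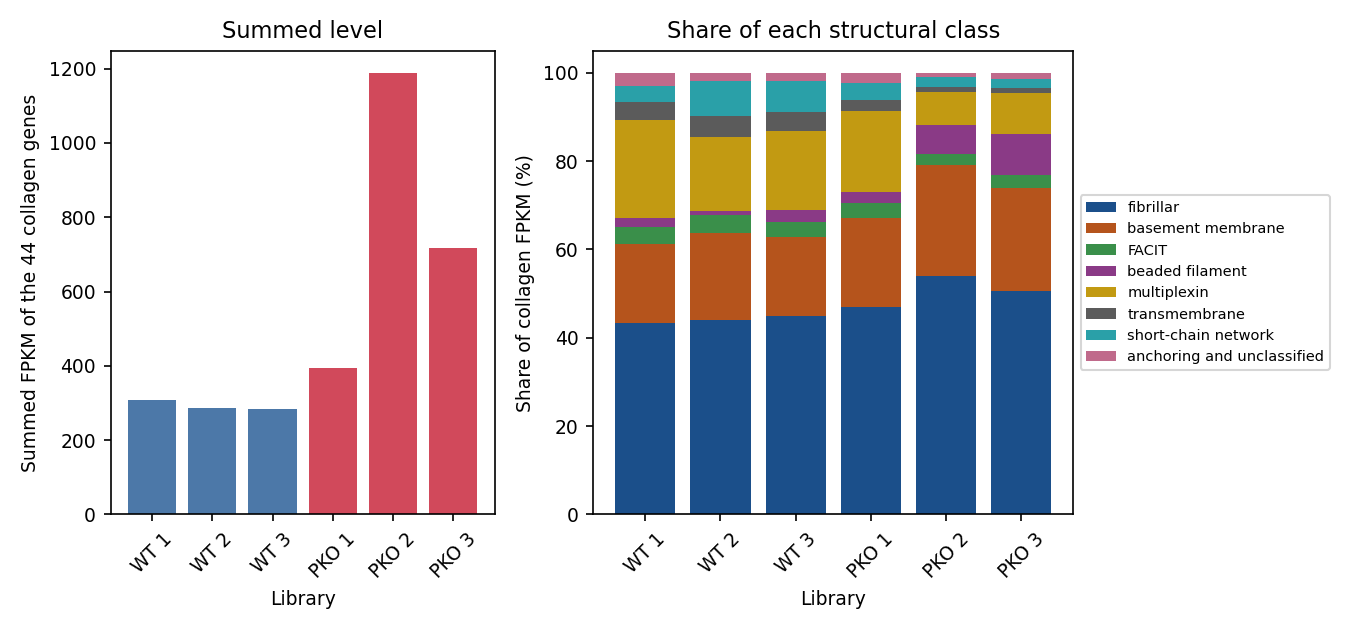
Left, summed FPKM of the 44 collagen genes in each library (blue WT, red PKO; bars are single libraries). Right, the share of that sum taken by each structural class in percent; the fibrillar part goes from 43.3% in WT 1 to 54.0% in PKO 2 and the multiplexin part from 22.1% to 7.51%.

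Chains that meet in a trimer or fibril were then set against each other within each library, as ratios of FPKM. The ratio of Col3a1 to Col1a1 was 89.4, 23.6 and 18.3 (WT) and 16.6, 0.844 and 2.75 (PKO). Every PKO library was below every WT library, and in PKO 2 the type I chain exceeded the type III chain (exact two-sided permutation test of log2 ratios, p = 0.1; adjusted p over 6 ratios 0.24). The ratio of Col4a1 to Col4a2 was 1.78, 2.06 and 1.73 (WT) and 1.62, 1.49 and 1.57 (PKO), spanning a narrow range although each mRNA varied several-fold, and it too was lower in every PKO library (exact p = 0.1, adjusted 0.24). Col1a1 was at 0.0769, 0.378 and 0.484 (WT) and 0.406, 0.905 and 0.450 (PKO) of Col1a2. In WT 1 the α1 chain was far below the α2 chain and in PKO 2 the chains were nearly level, with the groups overlapping otherwise.

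For type V, the ratio of Col5a1 to Col5a2 was 0.302, 0.173 and 0.187 (WT) and 0.239, 0.548 and 0.358 (PKO), so Col5a2 was the more abundant chain in all 6 libraries. For type VI, the ratio of Col6a1 to Col6a2 was 12.1, 16.1 and 5.79 (WT) and 9.38, 2.96 and 3.01 (PKO). Col6a3 was at 0.0372, 0.272 and 0.463 (WT) and 0.358, 0.966 and 0.789 (PKO) of Col6a1. In PKO 2 and PKO 3 the type VI chains were closer to each other than in the WT libraries. No ratio had an adjusted p under 0.24 over the 6 ratios, where 3 against 3 libraries cannot reach a raw p under 0.1.

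**Figure D5:**
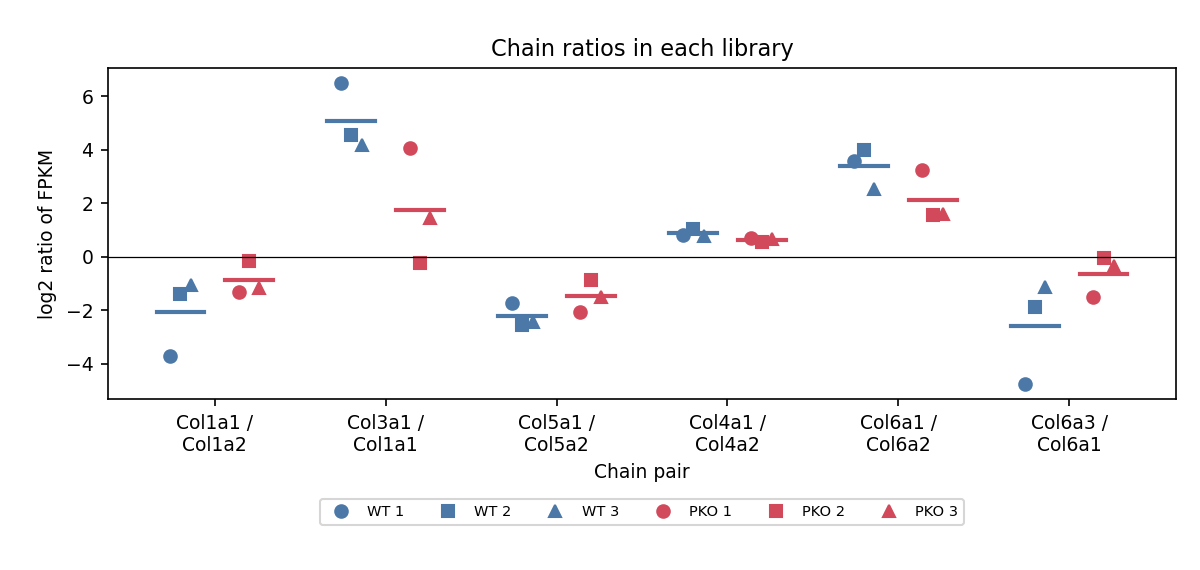
Log2 ratio of FPKM for 6 pairs of collagen chains; each point is 1 library (blue WT, red PKO, shape gives the library number) and lines mark group means. The Col3a1 to Col1a1 ratio spans from 6.48 in WT 1 to −0.25 in PKO 2, while Col4a1 to Col4a2 stays between 0.57 and 1.04.

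Values of neighbouring collagen genes were set side by side. Col4a1 and Col4a2, overlapping head to head, were both called higher by DESeq2 and not by edgeR. Col4a5 and Col4a6, head to head 1308 bases apart on the X chromosome, were at different levels, Col4a6 having at most 0.51 CPM in any library. The tail-to-tail neighbours Col3a1 and Col5a2, 24614 bases apart on chromosome 1, had log2 fold changes of 0.93 and 0.64. Col6a1 and Col6a2, in tandem 85161 bases apart on chromosome 10, were both called higher by DESeq2 and not by edgeR, and both calls were lost without PKO 2. Col4a3 and Col4a4, head to head 71 bases apart on chromosome 1, were both too low to test.

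Genes that act on collagen chains were taken from 4 lists. DESeq2 counts for these lists, and for the marker lists further on, stand beside 4.73% higher and 0.933% lower over the whole table. Of 24 biosynthesis genes (prolyl and lysyl hydroxylases, chaperones and export factors), 23 were tested and 21 had a positive log2 fold change, with a median of 0.38. Over the 22 that reached the filter's cutoff in every WT library, all but P4ha3, the median was 0.35. Of the 23 with an adjusted p, DESeq2 called 4 higher, P4ha2, P4ha3, P3h3 and Fkbp10, and 0 lower. Fkbp10, a chaperone of the endoplasmic reticulum, was at 94.3, 58.8 and 56.2 CPM (WT) and 117, 130.3 and 130.2 CPM (PKO) (log2 fold change 0.85 ± 0.21 SE; DESeq2 adjusted p = 0.0134). P4ha3, a prolyl 4-hydroxylase subunit, was at 1.89, 0.458 and 0.656 CPM (WT) and 4.21, 8.18 and 5.33 CPM (PKO) (DESeq2 adjusted p = 5.48e-04), and P3h3, which acts with lysyl hydroxylase 1, at 9.74, 10.8 and 8.97 CPM (WT) and 14.1, 41.9 and 37.5 CPM (PKO) (DESeq2 adjusted p = 0.00141). Fkbp10, P4ha3 and P3h3 are printed because they had the smallest edgeR p of this list. In each the PKO libraries were above all WT libraries, with PKO 1 nearest to WT, a pattern which that choice favours. Of the 23 tested, 8 did not overlap between groups and were higher in PKO, and 0 were lower. Over all genes these shares were 11.7% and 9.72%.

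Of 17 processing and crosslinking genes, 16 were in the table and 13 were tested, with a median log2 fold change of 1.39 (1.22 over the 11 that reached the filter's cutoff in every WT library). Of the 16 with an adjusted p, DESeq2 called 8 higher and 0 lower. Lox, Loxl1, Loxl2, Loxl3 and Loxl4, which oxidise lysines to start crosslinks, were 5 of these, and Bmp1, Tll1 and Pcolce, which cut or help to cut the C-terminal propeptide, were the others. Lox was at 32.6, 14.5 and 13.7 CPM (WT) and 44.3, 344 and 208 CPM (PKO) (log2 fold change 3.30 ± 0.74 SE; DESeq2 adjusted p = 0.00486). Loxl2 was at 1.00, 0.393 and 1.75 CPM (WT) and 6.55, 144 and 36.4 CPM (PKO) (log2 fold change 5.86 ± 1.21 SE; DESeq2 adjusted p = 1.89e-04). Pcolce was at 88.3, 68.0 and 73.7 CPM (WT) and 107, 185 and 189.6 CPM (PKO) (log2 fold change 1.07 ± 0.23 SE; DESeq2 adjusted p = 0.00249). Lox, Loxl2 and Pcolce, printed for the same reason, did not overlap between groups either, and in Lox and Loxl2 PKO 2 was highest. Of the 13 tested, 8 did not overlap and were higher in PKO, and 1 was lower, beside 11.7% and 9.72% of all genes.

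Among 11 collagen receptors, 9 were in the table and 8 were tested, with a median of 0.25 (0.094 over the 6 at the cutoff in every WT library). Of the 9 with an adjusted p, DESeq2 called Itga2 and Mrc2 higher. Itga2, named after its values were seen, had too few counts to be tested in edgeR. It was at 0.472, 0 and 0.219 CPM (WT) and 0.213, 6.59 and 1.64 CPM (PKO) (DESeq2 adjusted p = 0.0414), with PKO 1 inside the WT range. Mrc2, the endocytic receptor that takes up collagen, was at 55.0, 14.1 and 19.2 CPM (WT) and 65.8, 273 and 163 CPM (PKO) (DESeq2 adjusted p = 0.0410). Itgb1, the common β1 integrin subunit, was at 763, 752 and 784 CPM (WT) and 834, 1095 and 904 CPM (PKO) and was not called (DESeq2 adjusted p = 0.341); Itga1 was at 0.118, 0.393 and 0.930 CPM (WT) and 1.06, 2.50 and 0.666 CPM (PKO) and was not called either (DESeq2 adjusted p = 0.358). Of 13 fibril-associated partners, 8 were tested, all with a positive log2 fold change (median 2.88). Tgfbi did not reach the filter's cutoff in every WT library, and over the 7 that did the median was 2.75. DESeq2 called 7 partners higher of the 11 with an adjusted p. Fn1 (fibronectin, on which fibrils are assembled) was at 357, 342 and 327 CPM (WT) and 598, 4013 and 1865 CPM (PKO) (log2 fold change 2.66 ± 0.61 SE; DESeq2 adjusted p = 4.10e-05). Thbs2, a matricellular glycoprotein, was at 25.3, 22.2 and 26.7 CPM (WT) and 40.7, 253 and 304 CPM (PKO) (DESeq2 adjusted p = 0.00453), and Fbn1, the microfibril protein fibrillin-1, at 41.3, 43.7 and 47.7 CPM (WT) and 61.0, 468 and 206 CPM (PKO) (DESeq2 adjusted p = 0.0283). PKO 2 or PKO 3 was highest for each and PKO 1 was next to the WT libraries.

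Markers of other cells that a muscle sort can hold were set beside these genes, and the lists differed. The median log2 fold change was 1.23 to 3.64 for the stromal (10 genes tested), endothelial (7), pericyte and smooth muscle (7), and adipocyte lists. The adipocyte value is that of 1 tested gene, Pparg. For the tendon (3 genes tested), Schwann (3) and leukocyte (4) lists the median was −0.12 to 0.10. Over genes at the filter's cutoff in every WT library, the endothelial median was 0.60 (1 gene) and the pericyte and smooth muscle median 0.92 (6 genes). The leukocyte median over such genes was −0.48 (3 genes) and the Schwann median 0.16 (2 genes). All tested tendon and adipocyte markers reached the cutoff. Of 16 stromal (fibro-adipogenic) markers, 15 were in the table. Their summed level was 186 to 281 CPM (WT) and 298 to 644 CPM (PKO). The median marker stood at log2 differences from the WT mean of 0.79 in PKO 1, 4.16 in PKO 2 and 3.76 in PKO 3. Of the 10 tested, 9 had a positive log2 fold change, with a median of 3.64. Over the 7 that reached the filter's cutoff in every WT library the median was 1.86, with 6 above 0; Ly6a, Twist2 and Mfap5 did not reach it. DESeq2 called 7 higher of the 11 with an adjusted p. Pdgfra, the defining receptor of these cells, was at 2.12, 2.03 and 3.72 CPM (WT) and 5.11, 102 and 95.2 CPM (PKO) (log2 fold change 4.67 ± 1.04 SE; DESeq2 adjusted p = 0.00115). Gsn, which contributed most to the sum, was at 254, 149.6 and 139 CPM (WT) and 262, 325 and 348 CPM (PKO) (DESeq2 adjusted p = 0.0619). Dpt had no count in WT 1, WT 2, WT 3 and PKO 1, and 5, 1 and 4 of the 15 were at 0 in WT 1, WT 2 and WT 3 against 3, 0 and 1 in PKO 1, PKO 2 and PKO 3. Dcn belongs both to this list and to the fibril-associated partners. PKO 2 and PKO 3, the libraries highest in type I and type VI chains, were also the highest in stromal markers. The part of stromal cells in the collagen values was not tested.

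Other marker lists were summed in the same way. The 9 endothelial markers in the table summed to 4.37 to 5.82 CPM (WT) and 8.15 to 16.7 CPM (PKO), with Cdh5 and Emcn called higher by DESeq2, and Emcn at 0 in WT 1 and Cldn5 in WT 2. Cdh5, an endothelial cadherin, was at 0.472, 1.64 and 0.984 CPM (WT) and 2.18, 6.08 and 5.07 CPM (PKO). Pecam1, an endothelial adhesion molecule, was at 0.767, 0.720 and 0.437 CPM (WT) and 2.34, 1.02 and 2.15 CPM (PKO) and was not called (DESeq2 adjusted p = 0.117). The 8 pericyte and smooth muscle markers summed to 1316 to 2153 CPM (WT) and 1941 to 2338 CPM (PKO). Of the 7 tested, 5 had a positive and 2 a negative log2 fold change. Cspg4 and Pdgfrb were called higher by DESeq2, and Kcnj8 was at 0 in WT 1 and WT 3. Acta2, smooth muscle actin, made up most of the sum at 1821, 979.7 and 1138 CPM (WT) and 1733, 1786 and 1532 CPM (PKO) and was not called (DESeq2 adjusted p = 0.519). Notch3, a mural cell receptor, was at 151, 262 and 257 CPM (WT) and 165, 119.5 and 84.0 CPM (PKO), with a log2 fold change of −0.86 ± 0.30 and no call (SE; DESeq2 adjusted p = 0.0770). Tendon markers (6 in the table) summed to 216 to 279 CPM (WT) and 211 to 218 CPM (PKO), with Tnmd at 0 in WT 2, WT 3 and PKO 2. Scx, the tendon transcription factor, was at 137, 130.0 and 141 CPM (WT) and 120.3, 125 and 130.0 CPM (PKO), and Egr1, which acts with it and in many other cells, at 76.4, 116 and 134 CPM (WT) and 94.6, 77.6 and 76.3 CPM (PKO); neither was called. Leukocyte markers (9) summed to 12.2 to 25.6 CPM (WT) and 18.4 to 30.1 CPM (PKO), with Tyrobp at 0 in the WT libraries and PKO 1. Of the 4 tested, 2 had a positive and 2 a negative log2 fold change. Lyz2, a lysozyme gene, was called higher by DESeq2 at 0.236, 0.196 and 1.59 CPM (WT) and 5.16, 8.69 and 7.22 CPM (PKO). Laptm5, the most abundant of the list, was at 5.96, 19.8 and 16.7 CPM (WT) and 7.03, 12.9 and 6.46 CPM (PKO), with a log2 fold change of −0.68 ± 0.47 and no call (SE; DESeq2 adjusted p = 0.483). Schwann cell markers (7) summed to 3.78 to 13.1 CPM (WT) and 6.55 to 12.6 CPM (PKO), with Sox10 at 0 in WT 1 and PKO 1. Ngfr, a neurotrophin receptor, was at 2.30, 4.71 and 6.56 CPM (WT) and 3.46, 5.0 and 4.10 CPM (PKO) and was not called (DESeq2 adjusted p = 0.936). The 3 adipocyte markers in the table summed to 1.53 to 3.13 CPM (WT) and 5.32 to 11.3 CPM (PKO), with Lep at 0 in all but PKO 2. Fabp4, a fatty acid binding protein, was called higher by DESeq2 at 0.354, 0.131 and 0.109 CPM (WT) and 0.319, 2.44 and 5.38 CPM (PKO), and Pparg, the adipocyte nuclear receptor, was not called at 2.77, 1.70 and 1.42 CPM (WT) and 5.0, 2.84 and 5.94 CPM (PKO). For each of the 10 myogenic markers the log2 fold change was below 0 (median −0.24), and they summed to 11338 to 12471 CPM (WT) and 8690.4 to 11757 CPM (PKO), and DESeq2 called Itga7 lower. Des, the muscle intermediate filament gene, was at 2784, 2391 and 2333 CPM (WT) and 2638, 1748 and 2157 CPM (PKO). PKO 2 and PKO 3 had the lowest summed myogenic level. The part of any of these cell types in the collagen values was not tested.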

How the data were processed

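Reads of 6 libraries (3 WT, 3 PKO; 15580176 to 18839151 counts each) were filtered, mapped with TopHat2 to GRCm38 (mm10) and turned into read counts per gene with HTSeq 0.6.1 by the authors, per the series text and the submitters' processing notes. No source used here gives the annotation version or the strand setting. The deposited FPKM values are those counts scaled by the authors to gene length and depth. The deposited normalized signal columns are the counts divided by 1 factor per library and were used for a check only. The authors' log2 fold changes and their p-values, deposited in the same table and made with DESeq2 or edgeR per the series text, were not used. Single genes were tested with edgeR 4.0.16 (R 4.3.3): filterByExpr, TMM factors, a robust quasi-likelihood test on genotype alone, and Benjamini-Hochberg adjustment over 14025 genes. DESeq2 1.42.0 was run on the whole table, and leaving out each library, other scalings, other filters and limma-voom (limma 3.58.1) were further alternatives. The edgeR steps were tested on simulated counts with the same dispersion for every gene and no library set apart from its group. The PKO libraries here were not alike, so that test does not show how the steps deal with such libraries. Shares and ratios were compared by exact two-sided permutation over libraries. The collagen members, classes and other lists were chosen with earlier results of these data known. Values per library are printed for the 12 members with the highest mean FPKM, the 2 highest tested members of each class, tested members with a negative fold change and a mean of at least 1 CPM, members called lower, up to 3 genes per other list by smallest p, and the 2 highest genes of marker lists (1 gene is not reported here); others are said to be named after their values were seen. Older symbols were matched by Ensembl ID. Protein sequences were not used here.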

Additional observations from a re-analysis of the deposited data

How the results depend on the processing

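The count of collagen genes called higher was 0 in edgeR with all libraries and stayed 0 with other scalings, other filters, limma-voom and a replicate block, but it was 12 in DESeq2 and 16 in edgeR without WT 1 and PKO 1. Those libraries were chosen with their place between the groups known, which widens the difference. Leaving out 1 library at a time gave 0 to 13 in edgeR, with 13 without PKO 1 and 4 without WT 1. The count called lower in edgeR was 0 with all libraries, 1 in DESeq2 and 2 without WT 1 and PKO 1. Alternatives added after seeing the data repeated the DESeq2 calls: 12 higher became 5 to 16 with 1 library left out (5 without WT 2, 6 without WT 3 and 6 without PKO 2) and 19 without WT 1 and PKO 1, and 1 lower became 0 to 3 (0 without WT 2, WT 3 or PKO 3, 3 without WT 1) and 2. The median log2 fold change of the tested collagen genes was 0.87 and ranged from 0.82 to 1.50 with 1 library left out (1.50 without WT 1), and was 1.55 without WT 1 and PKO 1. Col8a1 changed sign, ranging from −0.30 (without PKO 2) to 0.25 with 1 library left out, −0.21 without WT 1 and −0.068 without WT 1 and PKO 1. Of 375 gene values under alternatives, 3 reversed, all of Col8a1, and 47 in 17 genes passed the threshold that the edgeR fit with all libraries did not. No scaling moved the median of all genes by over 0.1. The replicate numbers were not shown to pair libraries (correlations of same-numbered libraries 0.10, −0.03 and 0.13), and with the replicate block 0 collagen genes were called and the median was 1.10. With 3 libraries a group, no permutation p can go below 0.1. The causes of these changes were not tested. The planned comparison of protein features was not run.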
